A study of Mus musculus with 6 samples.

Results

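The Sonic hedgehog core pathway genes are 9 genes that carry the signal from the ligand to the nucleus: Shh, Ptch1, Smo, Gli1, Gli2, Gli3, Sufu, Boc and Cdon. They were chosen by name, and their Bcl6 binding was read from the authors' table of 3878 peaks through the authors' list of the genes next to each peak, which names 4540 genes. Of the 9 genes, 5 were in that list, with 9 peaks in all. Shh, Smo and Gli3 had 1 peak each, Ptch1 and Gli2 had 3 each, and Gli1, Sufu, Boc and Cdon had no listed peak.

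In this pathway, secreted Shh binds the receptor Ptch1, helped by the co-receptors Boc and Cdon. Without ligand, Ptch1 keeps the membrane protein Smo silent. Released Smo frees the zinc finger factors Gli2 and Gli3 from Sufu, and Gli1 and Ptch1 are themselves induced by the signal. In the developing forebrain Shh comes from ventral sources, while Gli3, largely as a repressor, is needed for the dorsal telencephalon that forms the cortex.

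The cells were cortical progenitors differentiated from A2 lox.Cre Bcl6 mouse embryonic stem (ES) cells. This line carries Bcl6 under tetracycline control and had been kept on irradiated fibroblasts. The study had 3 libraries precipitated with an antibody to Bcl6, a zinc finger transcriptional repressor, and 3 libraries of input DNA. All 6 came from cells at differentiation day 12 after 24 h of induction with doxycycline at 1 µg/ml. All 6 also shared a treatment that bears on the pathway itself: cyclopamine, a plant alkaloid that binds and inhibits Smo, was added at 400 ng/ml from day 2, and the medium was switched back after 10 days. Uninduced cells and cells without cyclopamine were not analysed here. The data map binding and hold no expression values, so the labelled cell type could not be checked against its markers, and whether any of the 9 genes was expressed is not known from them.

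The libraries of each group were pooled before the peaks were called. Every value below is therefore a single value of the pooled data with no spread between replicates, and no difference was tested. After removal of tags at the same position, the pooled ChIP kept 11718276 of 56836596 tags (20.6%). The pooled input kept 5048582 of 12808138 (39.4%). Intervals on tag counts are exact 95% Poisson intervals and cover counting error only. The fold enrichment and the p-value score (−10 log10 p, with a cutoff of 50) are the authors' peak caller's own. Over all 3878 peaks the medians were 21.3-fold, a score of 71.7, 58 tags and a width of 1405 bp.

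Among all 21900 protein-coding genes 20.1% had a listed peak, against 5 of the 9 core genes (55.6%). With the peak centre within 1 kb of the transcription start site (TSS), the counts were 10.8% of all protein-coding genes and 4 of the 9, namely Ptch1, Smo, Gli2 and Gli3. At least 3 listed peaks were found in 1.05% of protein-coding genes and in 2 of the 9, Ptch1 and Gli2. However, the Ptch1 peak at 68.6 kb and the Gli2 peaks at 252 and 405 kb each had another listed gene with a nearer TSS. Without these remote peaks neither gene had 3. These shares are descriptions, since the genes were proposed with earlier results of these data in view.

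The promoter sequences of the 4 genes with a peak at the TSS are shown because they are the stretches of the pathway that lay under Bcl6 peaks, and that of Sufu is shown as a core promoter with no peak. Each is the 250 bases before the RefSeq TSS on mm10 (GRCm38.p6), in the direction of transcription, with CpG dinucleotides in capitals. They lie at chr13:63565736-63565985 on the minus strand for Ptch1, chr6:29735247-29735496 on the plus strand for Smo, chr1:119053620-119053869 on the minus strand for Gli2, chr13:15463473-15463722 on the plus strand for Gli3 and chr19:46396646-46396895 on the plus strand for Sufu.
Ptch1: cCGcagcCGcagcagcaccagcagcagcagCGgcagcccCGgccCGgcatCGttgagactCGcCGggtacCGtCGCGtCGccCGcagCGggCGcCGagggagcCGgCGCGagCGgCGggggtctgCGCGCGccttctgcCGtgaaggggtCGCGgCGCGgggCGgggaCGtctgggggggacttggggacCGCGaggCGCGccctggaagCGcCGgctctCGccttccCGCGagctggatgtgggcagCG
Smo: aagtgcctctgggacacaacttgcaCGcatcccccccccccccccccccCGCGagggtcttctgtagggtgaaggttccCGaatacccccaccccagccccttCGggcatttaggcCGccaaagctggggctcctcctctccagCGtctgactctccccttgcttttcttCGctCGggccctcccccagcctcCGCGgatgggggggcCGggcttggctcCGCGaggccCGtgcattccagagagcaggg
Gli2: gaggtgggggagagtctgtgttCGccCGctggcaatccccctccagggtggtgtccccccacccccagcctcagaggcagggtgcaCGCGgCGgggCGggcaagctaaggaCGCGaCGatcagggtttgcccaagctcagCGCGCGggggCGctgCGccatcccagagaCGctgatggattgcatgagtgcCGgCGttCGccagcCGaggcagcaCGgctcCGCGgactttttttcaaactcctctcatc
Gli3: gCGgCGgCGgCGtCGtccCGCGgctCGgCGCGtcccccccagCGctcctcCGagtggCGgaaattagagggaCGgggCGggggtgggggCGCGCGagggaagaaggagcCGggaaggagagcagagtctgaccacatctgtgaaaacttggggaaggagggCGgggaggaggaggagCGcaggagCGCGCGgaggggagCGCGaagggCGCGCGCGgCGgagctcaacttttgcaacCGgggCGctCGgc
Sufu: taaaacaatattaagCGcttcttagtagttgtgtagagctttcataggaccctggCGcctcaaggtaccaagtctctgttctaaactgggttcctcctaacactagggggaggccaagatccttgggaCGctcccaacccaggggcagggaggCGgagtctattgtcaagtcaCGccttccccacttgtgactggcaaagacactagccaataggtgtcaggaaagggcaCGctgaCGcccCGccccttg

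The promoters of Ptch1, Gli2 and Gli3 lay under a peak over all 250 bases, and that of Smo over 115 of them. The 4 promoters were rich in CpG. Ptch1 had 41 CpG dinucleotides in the 250 bases, Gli3 had 34, Gli2 had 22 and Smo had 15, against a median of 6 over the 32851 promoters of the RefSeq table. The promoters without a peak had fewer, 8 at Sufu and 1 at Cdon. The listed promoter of Cdon, at chr9:35451826-35452075 on the plus strand, lies inside the span of the gene and does not stand for its outermost start. Promoter sequences were at hand for 6 of the 9 genes, and Shh, Gli1 and Boc were not among them. The RefSeq gene spans covered all 9.

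Over the whole table, 8.82% of promoters lay at least in part under a peak. The share was 1.63% of the 20434 promoters with 0 to 9 CpG, 15.8% with 10 to 19, 24.6% with 20 to 29 and 28.8% of the 1952 with 30 or more. The core promoters with a peak were in the 3 classes of 10 CpG or more and those without in the lowest, and the part of base composition in these peaks was not tested. Base composition followed the same split, with 78.4% G and C at Ptch1, 72.8% at Gli3, 68.4% at Smo and 67.2% at Gli2, against 54.0% at Sufu, 42.8% at Cdon and a median of 52.4%.

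**Figure D1:**
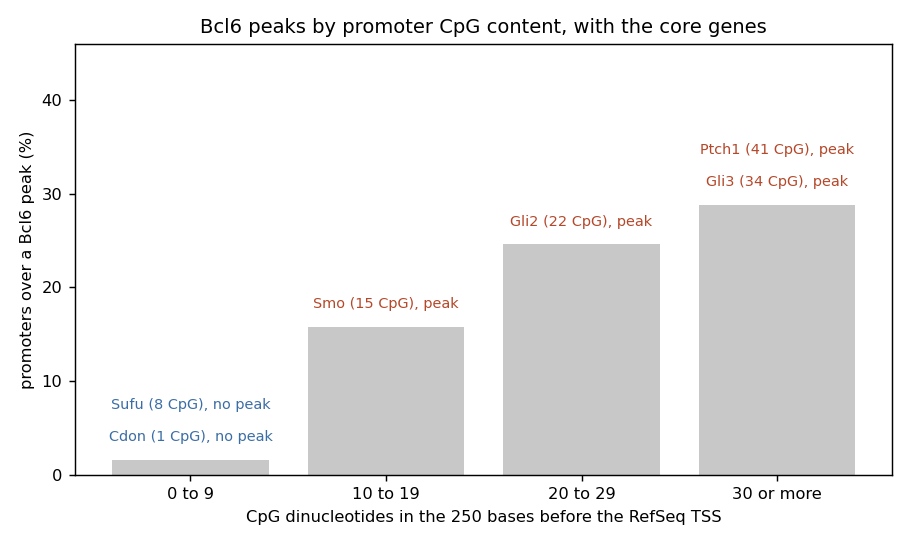
Share of RefSeq promoters that lay at least in part under a Bcl6 peak (y axis, percent) by the number of CpG dinucleotides in the 250 bases before the TSS (x axis), with the 6 core genes that have an entry written above their class. The share rises from 1.63% at 0 to 9 CpG to 28.8% at 30 or more, and Sufu and Cdon, without a peak, are in the lowest class.

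None of the 6 core promoters held any of the motifs searched. They were the Bcl6 and STAT type palindrome TTCNNNGAA, the Bcl6 site TTCCTAGAA (which is a case of TTCNNNGAA), the shorter TTCTAGAA, and GACCACCCA, the site bound by GLI factors, each read on both strands in the 300 bases from 250 before to 50 after the TSS. The palindrome was present in 8.30% of all 32851 promoters and in 6.39% of the 2896 under a peak. The other motifs were rare, in 0.411%, 1.10% and 0.253% of all promoters. The window covers a part of each peak only and holds none of the peak summits. These lay 688 bp and 327 bp upstream of the RefSeq TSS at Ptch1 and Gli3, and 87 bp and 289 bp downstream at Gli2 and Smo. The absence of motifs in the window thus says nothing of the rest of the peak.

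Shh, the ligand, had a single and distant peak. It lay on chromosome 5 from 29209883 to 29210670, 743 kb upstream of the TSS, and held 29 tags (19.4 to 41.6), the fewest of the 9 peaks. Its enrichment was 31.5-fold, higher than in 84.4% of all peaks, while its score of 63.9 was higher than in 37.4%. The Shh gene itself, from 28456840 to 28467101, was 139 kb from its nearest peak, which was listed for Rbm33.

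The Shh peak was also listed for Rnf32 and Lmbr1, and both TSSs were closer, at 14.3 kb and 168 kb. Its centre lay inside the span of Rnf32, a ring finger gene, and 19.5 kb outside that of Lmbr1, the gene known to house a long-range limb enhancer of Shh. No protein-coding gene lay wholly between the Shh TSS and the peak. The header of the authors' list says that curated regulatory domains were used in tying peaks to genes.

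Ptch1, the receptor and itself a product of the signal, had 3 peaks on chromosome 13. A peak from 63565601 to 63566951 was centred 756 bp upstream of the listed TSS, with 47 tags (34.5 to 62.5), 17.0-fold enrichment and a score of 50.6. This score was just above the cutoff of 50 and higher than in only 2.1% of all peaks. A peak from 63562753 to 63564634 was centred 1827 bp downstream, with 75 tags (59.0 to 94.0), 16.2-fold enrichment and a score of 56.2.

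Both peaks near the Ptch1 TSS ranked low, with folds above those of 25.4% and 22.3% of all peaks. The upstream peak was nevertheless inside the RefSeq span of Ptch1, which runs from 63508328 to 63573460 on the minus strand and so begins before the listed TSS. The gene table gives no exons, and whether a peak covers an exon or an intron was not determined.

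The strongest peak of all 9 by fold was the third listed for Ptch1, from 63496500 to 63497332, at 37.2-fold (higher than in 91.3% of all peaks), with 50 tags (37.1 to 65.9) and a score of 109. It was also the densest, with 60.0 tags per kb against 34.8 to 40.3 in the other 8. It was centred 68.6 kb downstream of the Ptch1 TSS and beyond the end of that gene. The peak lay over the outermost 5′ start of Fancc, a Fanconi anaemia gene on the minus strand, with its centre 376 bp inside the RefSeq span of that gene, which begins at 63497292. The authors' list uses an internal TSS of Fancc and placed the peak 65.2 kb upstream of it, also closer than to the TSS of Ptch1. By the outermost RefSeq start, this peak is thus remote from Ptch1 and next to the start of Fancc.

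Smo, the signal-transducing membrane protein and the target of cyclopamine, had a peak over its TSS. It ran from 29735382 to 29736470 on chromosome 6, with its centre 232 bp and its summit 92 bp downstream of the listed TSS. It held 42 tags (30.3 to 56.8), with 20.85-fold enrichment and a score of 58.5. The fold was close to the median of all peaks and the score was higher than in 26.4% of them. No other gene was listed for it.

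The GLI factors, which act on the pathway's target genes, differed among themselves. Gli2, the main activator, had the peak with the most tags and the highest score of the 9, on chromosome 1 from 119052012 to 119054289. It held 84 tags (67.0 to 104), with 24.4-fold enrichment and a score of 124, higher than in 84.5% of all peaks. It was centred 469 bp downstream of the TSS with its summit at 87 bp, and at 2278 bp it was the only one of the 9 peaks over 2 kb wide. This peak was listed for Gli2 alone.

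The other peaks listed for Gli2 lay far away on either side, in or next to other genes. The downstream peak, from 118647431 to 118648870, was 405 kb from the Gli2 TSS with 58 tags (44.0 to 75.0), 25.3-fold enrichment and a score of 85.7. Its centre lay inside Tfcp2l1, which encodes a transcription factor of the pluripotency network, 20.2 kb downstream of that gene's TSS. The upstream peak, from 119304700 to 119306040, was 252 kb from the Gli2 TSS with 50 tags (37.1 to 65.9), 17.3-fold enrichment and a score of 53.4. It was also listed for Inhbb, an inhibin and activin subunit gene, at 117 kb, and its summit lay 207 bp from the RefSeq TSS of the long noncoding RNA gene Gm33388, which the authors' list did not name for it.

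Gli3, whose product is the pathway's main repressor, had 1 peak at its promoter and none elsewhere. It ran from 15462711 to 15463738 on chromosome 13, with 41 tags (29.4 to 55.6), 28.4-fold enrichment and a score of 82.7, higher than in 78.4% of all peaks by fold and 63.2% by score. Its centre was 756 bp upstream of the listed TSS, and its summit 327 bp from the RefSeq TSS. Gli3 was the core gene with the highest enrichment at its TSS. The centre also lay inside the span of Gm6556, a long noncoding RNA gene that overlaps the start of Gli3. Gli3 stood in 1366 kb between its protein-coding neighbours, the widest such interval among the 9 genes, yet no further peak was listed for it.

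**Figure D2:**
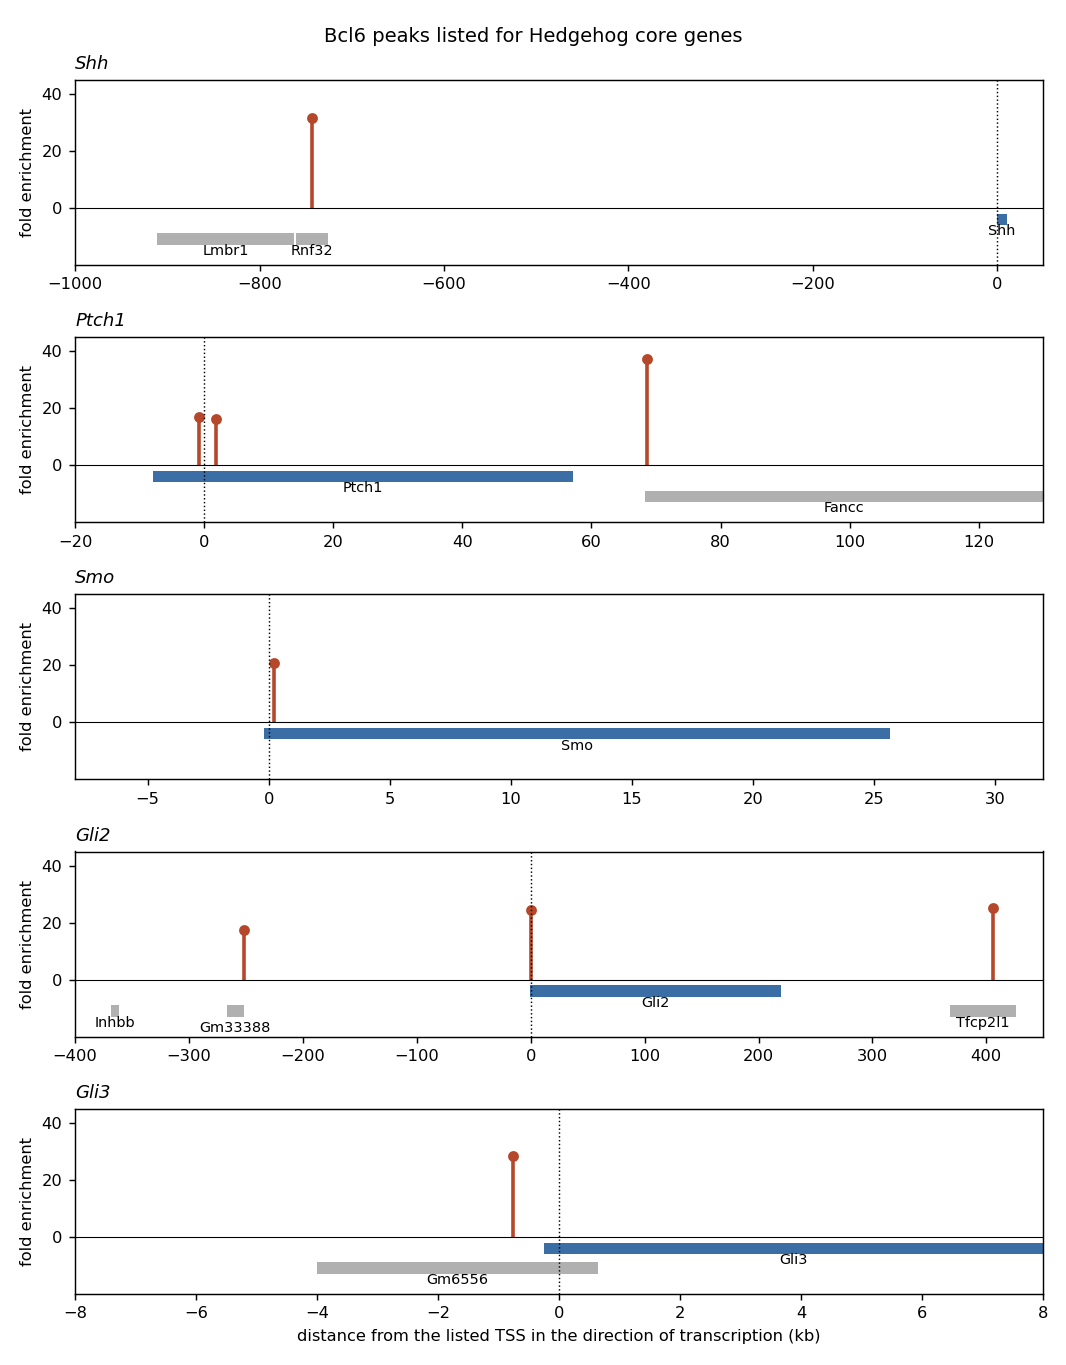
Position of the 9 peaks at the 5 core genes that had any, as distance of the peak centre from the listed TSS in kb (x axis, in the direction of transcription, with a scale of its own in each panel) against fold enrichment (y axis). Blue bars are the RefSeq spans of the core genes and grey bars those of other genes named in the text; the peaks at 16.2- to 28.4-fold near the dotted TSS line belong to Ptch1, Smo, Gli2 and Gli3, and the 4 remote peaks lie in or next to grey bars.

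Gli1, the activator that is itself induced by the signal, had no listed peak. The nearest peak on chromosome 10, from 127288270 to 127291882, was 38.0 kb from the gene and was listed for Mbd6 and Ddit3. It was stronger than any peak of a core gene, with 50.5-fold enrichment, 220 tags and a score of 216. Sufu, which holds GLI factors inactive, had its nearest peak 28.9 kb away at 21.3-fold, listed for Trim8 and Arl3.

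The co-receptor genes had none close by. The nearest peak to Cdon lay 50.6 kb away at 18.1-fold and was listed for Ddx25 and Pus3, within 1 kb of both TSSs. The nearest to Boc lay 137 kb away at 22.0-fold and was listed for Spice1, 469 bp from its TSS. The 4 genes without a listed peak had 37.6 to 242 kb between their protein-coding neighbours, against 49.8 to 1366 kb for the 5 with a peak. The authors' rule extends a gene's domain towards its neighbours, by up to 1000 kb, and the part of this spacing in the listing was not tested. The peak listed for Shh lay past the near neighbour on that side, 14.3 kb beyond the TSS of Rnf32.

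The 9 peaks fell into near and remote ones with none between. By the authors' distances 5 lay within 5 kb of the TSS, at Ptch1 (2 peaks), Smo, Gli2 and Gli3, and 4 lay over 50 kb away, at Shh, Ptch1 and Gli2 (2 peaks). Over all 5801 listed pairs of a peak and a gene, 52.1% were within 5 kb, 26.7% at 5 to 50 kb and 21.2% over 50 kb. In each of the 4 remote pairs another listed gene had a nearer TSS, as it did in 72.0% of the 1230 remote pairs over all genes. When only the gene with the nearest TSS was kept, Shh lost its listing and 5 peaks remained, those of Ptch1, Smo, Gli2 and Gli3 within 5 kb, with 14.8% of all protein-coding genes still listed.

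Within the pathway the near peaks had folds of 16.2 to 28.4 and the remote ones of 17.3 to 37.2, ranges that overlapped. The scores also overlapped, at 50.6 to 124 for the near and 53.4 to 109 for the remote peaks. Over all listed pairs the median fold was 20.2 within 5 kb and 24.4 beyond 50 kb.

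**Figure D3:**
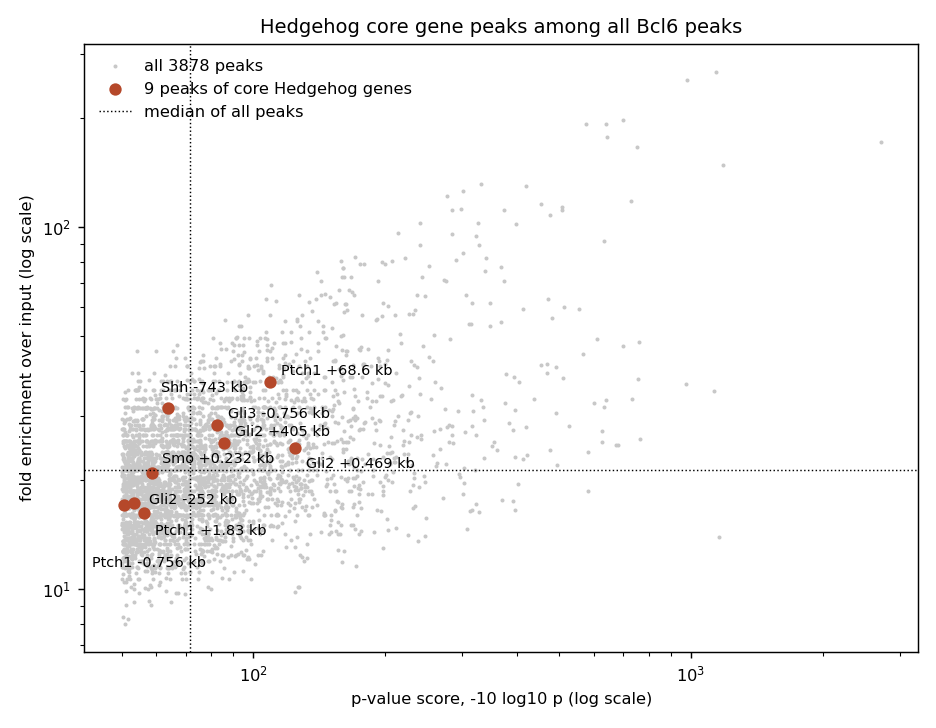
Fold enrichment (y axis, log scale) against the p-value score (x axis, log scale) for all 3878 peaks (grey) and the 9 peaks of core genes (red, labelled with the distance of their centre to the TSS); dotted lines are the medians over all peaks. The highest red point by fold is the 37.2-fold peak 68.6 kb from the Ptch1 TSS, and 5 of the 9 lie left of the median score.

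The median of the 9 peaks was above that of all peaks by fold (24.4 against 21.3). It was below by score (63.9 against 71.7) and by tags (50 against 58). By fold 5 of them were above the median of all peaks and by score 4. By tags 2 were above it, the Gli2 promoter peak and the Ptch1 peak at 1827 bp. By tags per kb 2 were above it, the remote Ptch1 peak and the Gli2 peak at 405 kb. Folds ran from 16.2 to 37.2, while the highest of the whole table was 269, and empirical FDRs, as given by the authors, ran from 0.63% to 2.64%. The tag interval of the Gli2 promoter peak (67.0 to 104) did not overlap those of Shh, Smo, Gli3 and the Ptch1 upstream peak. Nor did it overlap those of the remote Ptch1 and the upstream Gli2 peak. It did overlap those of the downstream peaks of Ptch1 at 1827 bp and of Gli2 at 405 kb. These counts are not scaled to width, and the Gli2 promoter peak was the widest. Per kb it held 36.9 tags, against 36.8 at Shh, 38.6 at Smo, 39.9 at Gli3 and 34.8 at the Ptch1 upstream peak. The remote Ptch1 and the upstream Gli2 peak held 60.0 and 37.3 tags per kb.

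**Figure D4:**
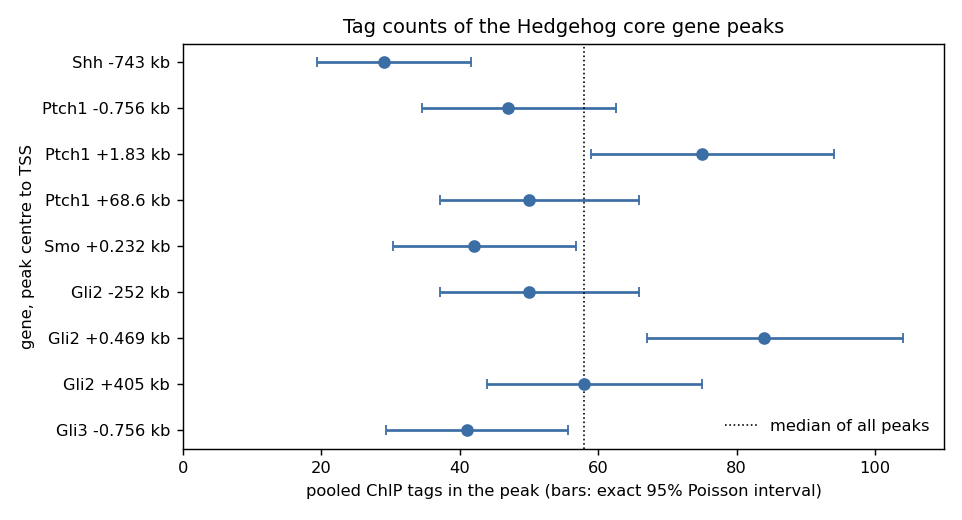
Pooled ChIP tags in each of the 9 peaks (x axis) with exact 95% Poisson intervals for counting error; the peaks are ordered by gene (y axis) and the dotted line is the median of 58 tags over all peaks. Shh has the fewest tags (29) and the peak over the Gli2 TSS the most (84), and the counts are not scaled to peak width.

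The wider pathway was read from a list of 48 genes that includes the 9. Of the 39 others, 7 had a listed peak (17.9%, against 20.1% of all protein-coding genes). Among 8 genes of ligands and their release only Shh was listed (12.5%), and Ihh, Dhh, Hhat and Disp1 were among those that were not. Among 9 receptors and co-receptors only Ptch1 and Smo were listed (22.2%), and the ligand antagonist gene Hhip, a target of the signal, had no peak.

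Of 17 genes of signal transduction, 3 had a peak (17.6%, near the 20.1% of all protein-coding genes), each with at least 1 within 5 kb of the TSS, where 12.8% of all protein-coding genes had one. Prkar1a, the regulatory subunit of protein kinase A, which restrains the pathway, had 1 of 19.9-fold (38 tags, 26.9 to 52.2) 1356 bp downstream of its TSS. Spop, which encodes an adaptor for the turnover of GLI proteins, had 1 of 24.6-fold (41 tags, 29.4 to 55.6) 272 bp upstream. Csnk1a1, a casein kinase gene, had 1 of 15.1-fold 75 bp from its TSS and another of 20.2-fold at 39.5 kb, which with 190 tags (163.9 to 219) and a score of 232 had the most tags and the highest score of any peak listed for the 48 genes. Kif7, Gsk3b and Prkaca had none listed.

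Of 11 genes known to respond to Hedgehog signalling, 4 had a peak (36.4%, against 20.1% of all protein-coding genes). Mycn, a proliferation factor of neural progenitors, had 1 of 23.3-fold (122 tags, 101 to 146) 650 bp upstream and another of 16.0-fold (49 tags, 36.3 to 64.8) 3026 bp downstream of its TSS. The cyclin genes Ccnd1, with 3 peaks, and Ccnd2, with 1 of 45.4-fold (123 tags, 102 to 147), were also listed, and Ccnd2 had the highest fold of the 48. Foxf1 had 1 of 23.05-fold with a score of 52.0, 8323 bp downstream of its TSS and inside the span of the neighbouring Mthfsd. The ventral neural genes Nkx2-1, Nkx2-2, Nkx6-1, Foxa2 and Olig2, which are known to depend on Shh in the neural tube, had no listed peak.

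Counting any peak over the RefSeq gene span extended by 5 kb on both sides, 18.8% of all protein-coding genes had a peak, as did Ptch1, Smo, Gli2 and Gli3 and not the other 5 core genes. By that count Dhh and Prkaca joined the wider pathway and Shh left it. The peak at Dhh (16.8-fold, 65 tags) was centred 19 bp from the TSS of Rhebl1, and that at Prkaca (18.6-fold, 83 tags) was listed for Samd1 at 355 bp and a Riken gene.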

How the data were processed

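Chromatin from 3 Bcl6 immunoprecipitations and 3 inputs was sequenced, and the libraries were pooled before analysis, per the series' design text. The submitters' processing notes name Bowtie and mm10, with no version. Peaks were called with MACS 1.4.2 at a p-value cutoff of 1e-05, per the file headers. The authors deposited raw tag counts per peak, fold enrichment as a ratio of ChIP to local input background, the p-value score (named from the order of columns and its minimum of 50.03) and the empirical FDR in percent. The gene list is the output of GREAT 3.0.0, per the file headers, and peak n in it was taken as row n of the peak table.

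Symbols were matched to a RefSeq table of GRCm38.p6, the build of mm10 (98.6% of 5801 pairs). TSSs were placed from peak centres and listed distances, and for Shh and Gli2 they fell on the RefSeq gene end or TSS to the base, while those of Ptch1, Smo and Gli3 lay 215, 197 and 257 bp from the RefSeq TSS. Percentiles are the share of the 3878 peaks with a lower value. Python 3.11.15, pandas 2.3.3 and scipy 1.17.1 were used, and the counting and motif search were checked on simulated data. The named genes were the 9 members, genes of the wider list with a peak, and genes sharing a member's peak; other neighbours and unlisted genes were named after their values were seen. Members and lists were chosen with earlier results of these data known. Sequences are from RefSeq.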

Additional observations from a re-analysis of the deposited data

How the results depend on the processing

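No replicate could be left out, and no paired analysis was possible because the deposited files hold only pooled values. With only peaks at or above the median score, 3 of the 9 core genes (Ptch1, Gli2 and Gli3), 6 of the 48 wider genes and 4 of the 9 core peaks were left, where 10.8% of protein-coding genes had a peak. The core peaks were 5 with the nearest gene alone, 5 within 50 kb, 5 within 5 kb and 4 within 1 kb. An FDR of at most 5% and a width of at most 2 kb left all 5 core genes, where 19.9% and 16.6% of protein-coding genes had a peak. The FDR rule could remove no core peak, since their highest FDR was 2.64%. The other assignments left 4 core genes, without Shh, where 10.8% to 18.8% of protein-coding genes had a peak. The counts of the wider list under all these rules were 6 to 13 of 48.

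Ranked by score, the percentiles among all peaks were 37.4 for Shh (84.4 by fold), 2.1, 20.1 and 79.9 for Ptch1 at −756, +1827 and +68604 bp (25.4, 22.3 and 91.3), 26.4 for Smo (48.4), 12.4, 84.5 and 65.6 for Gli2 at −251751, +469 and +405469 bp (28.7, 65.7 and 68.8) and 63.2 for Gli3 (78.4). Ranked by tags per kb they were 35.5 for Shh, 25.2, 49.4 and 91.3 for Ptch1, 43.8 for Smo, 37.5, 35.7 and 51.3 for Gli2 and 49.6 for Gli3, in the same order of peaks. The cause of these shifts was not tested. With 29 to 84 tags a peak, the tag intervals of most pairs of the 9 peaks overlapped. The main exception was the Gli2 promoter peak, and tag counts are not scaled to width.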

Other observations

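The folds of the peak table take a limited set of values. Of the 3878 peaks, 3240 (83.5%) share their fold to the last printed decimal with at least 1 other peak, and so do 8 of the 9 core peaks, all but that of Smo. The 31.5-fold of the Shh peak was also that of 34 other peaks, and the tags of these peaks ran from 20 to 72. The 28.4-fold of the Gli3 peak was shared by 38 others with 26 to 268 tags in the group, and the 17.0-fold of the Ptch1 upstream peak by 45 others with 38 to 130. A difference in fold between core peaks, such as that between Shh and Gli3, is between 2 such recurring values, and what sets them was not tested.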
